A study of Mus musculus with 24 samples.

Results

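The genes described here are 44 that encode glutamate receptor subunits, the auxiliary proteins that travel with those receptors and the scaffold proteins that hold them at the postsynaptic membrane, measured in the mouse hippocampus. They were taken by symbol from the 23240 genes of the count table. All 44 symbols were present and all 44 passed the filter on low values, which kept 15225 genes. By role they are 4 AMPA receptor subunits, 6 NMDA receptor subunits, 5 kainate receptor subunits, 1 delta receptor subunit, 6 metabotropic receptors, 7 auxiliary subunits, 2 neuronal pentraxins, 4 MAGUK scaffolds, 4 SAPAP scaffolds and 5 SHANK or Homer scaffolds.

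Glutamate released onto a hippocampal dendritic spine opens AMPA receptors, which carry most of the fast current, and NMDA receptors, which pass calcium only when the membrane is already depolarized and so start many forms of plasticity. Auxiliary subunits (TARPs, cornichons and Neto proteins) carry AMPA and kainate receptors to the surface and slow or speed their gating. Under the membrane, PSD-95 and its relatives bind the receptors, SAPAP proteins bind PSD-95, SHANK proteins bind SAPAP, and Homer proteins tie SHANK to metabotropic receptors.

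The mice were male wild-type C57BL/6 of 4 to 8 months. They ate either a diet with an inhibitor of the CSF1 receptor kinase that depletes microglia (the PLX diet of the labels), or the same diet without it (the control diet). After 3 weeks on the diet, 4 of the 5 groups went through chronic unpredictable stress for 5 weeks and then received, 3 times a week for 2.5 weeks, either electroconvulsive therapy (ECT) or sham treatment, with isoflurane anaesthesia before each treatment. The groups were ECT on the PLX diet (n = 4 libraries), sham on the PLX diet (n = 5), ECT on the control diet (n = 6), sham on the control diet (n = 5) and nonstressed mice on the control diet that received no treatment (n = 4). All 4 stressed groups therefore share the stress, and there was no nonstressed group on the PLX diet. Nothing in the labels says whether the libraries of a group are from different animals, so p-values measure the spread between libraries, which may be technical in part.

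Depth ran between 14971582 and 20120206 reads counted on genes in the 24 libraries, made by a poly(A)-based protocol, and the 44 genes took 0.969 to 1.16% of the normalized reads. The diet could be read in the data. The 12 microglial marker genes summed to 1332 to 2541 normalized reads in the libraries of the PLX diet, against 7275 to 10387 in those of the control diet, and none was at 0. P2ry12, a microglial purinergic receptor, had log2 fold changes of −2.74 among ECT mice and −2.86 among sham mice (PLX over control diet, limma, adjusted p = 2.53e-12 and 6.29e-13). Markers of dentate granule cells, CA1, CA3 and pan-neuronal genes were above 0 in every library. Markers of neighbouring tissue were above 0 as well: the 14 genes of thalamus and habenula summed to 4769 to 18268 normalized reads, and the 12 of choroid plexus to 5057 to 116181. The 8 libraries highest in the thalamus list came from all 5 groups, and values of these lists are given beside the results they touch.

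Levels can be set side by side between genes only per length of transcript, and are given here as mean normalized reads per kilobase of annotated exon (GENCODE vM21, GRCm38), over all 24 libraries. Cnih2, a cornichon that escorts AMPA receptors, was the highest at 8895 ± 1015 reads per kilobase (SD, n = 24), and Grm8, a presynaptic metabotropic receptor, was the lowest at 11.8 ± 4.45, a 754-fold span. With the longest transcript in place of all exons the order was much the same (Spearman's rho 0.977 across the 44 genes), with 7 genes moving by more than 3 ranks.

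Among the AMPA receptor subunits, which form the pore, Gria1 stood at 2923 reads per kilobase, Gria2, whose edited form keeps calcium out, at 777, Gria3 at 370.4 and Gria4 at 145. This order held in every group mean: Gria1 was at 3146 in ECT mice on the PLX diet, 2964 in sham mice on the PLX diet, 2852 in ECT mice on the control diet, 2909.6 in sham mice on the control diet and 2769 in nonstressed mice. The level of Gria4 was 142, 153, 147, 143 and 134 reads per kilobase in the same 5 groups. The distance of Gria1 from Gria2 rests in part on annotated exon lengths, 6.04 and 15.55 kilobases. Their mean normalized reads were 17661 and 12087. Over the longest transcript they stood at 3184 and 1166 reads per kilobase. The ratio of Gria1 to Gria2 normalized reads averaged 1.5 ± 0.0847 in ECT and 1.43 ± 0.0986 in sham mice on the PLX diet, 1.5 ± 0.144 in ECT and 1.47 ± 0.0537 in sham mice on the control diet, and 1.4 ± 0.104 in nonstressed mice (SD). The 5 ranges overlapped, and no library lay outside 1.25 to 1.72.

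NMDA receptors all contain the Grin1 subunit, which binds glycine, and Grin1 was the highest of its role at 861 reads per kilobase. The glutamate-binding subunits that set how long the channel stays open were lower: Grin2c at 219, Grin2d at 59.2, Grin2a at 39.8 and Grin2b at 37.0. The distance of Grin2c from Grin2a and Grin2b rests largely on annotated exon lengths, 5.04, 17.93 and 24.84 kilobases. Their mean normalized reads were 1102, 713 and 919. The annotation used in counting is not stated, so whether these lengths match the counted ones is not known. Grin3a, a glycine-binding subunit that lowers calcium entry, stood at 39.3. Grin2a, Grin3a and Grin2b thus lay close together. Over the longest transcript they stood at 48.7, 64.4 and 38.2, so the place of Grin3a depends on the length used. The order of these genes is not resolved. The ratio of Grin2a to Grin2b normalized reads averaged 0.772 ± 0.0385 in ECT and 0.802 ± 0.0734 in sham mice on the PLX diet, 0.786 ± 0.0483 in ECT and 0.801 ± 0.112 in sham mice on the control diet, and 0.714 ± 0.0673 in nonstressed mice (SD). The ranges of all groups overlapped, the lowest value being 0.624 in a nonstressed library and the highest 0.945 in a sham library of the control diet.

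Kainate receptor subunits split by a wide margin. Grik5, a high-affinity subunit that needs a partner to form a channel, stood at 1206 reads per kilobase, and Grik4, the other such subunit, at 163. The channel-forming subunits Grik3, Grik2 and Grik1 stood at 101, 71.3 and 28.0. Grid1, a delta receptor that links the spine to presynaptic organizers, was at 172. Of the metabotropic receptors, Grm2 and Grm5 were nearly level at 353 ± 63.6 and 349 ± 34.4 reads per kilobase (SD, n = 24). Grm2 and Grm3 (225) inhibit adenylyl cyclase, Grm5 couples to phospholipase C, and Grm7 (155), Grm4 (63.4) and Grm8 (11.8) are mainly presynaptic receptors that damp release.

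The auxiliary subunits covered the widest span of any role. Below Cnih2 came the TARP Cacng8 at 1156 reads per kilobase, Cacng3 at 449, Cnih3 at 431, Neto1 at 192, Cacng2 (stargazin) at 178 and Neto2 at 115. The neuronal pentraxins gather AMPA receptors from outside the cell: the secreted Nptx1 stood at 2579 and its membrane-bound partner Nptxr at 250. Among the scaffolds, Dlgap3, a SAPAP protein, was at 1687 and Dlg4, which encodes PSD-95, at 1342. Over the longest transcript the order turned round, with Dlgap3 at 1813 and Dlg4 at 2812. Shank1, Shank3 and Dlg3 stood at 928, 766 and 714, and the lowest scaffolds were Dlgap2 at 154, Dlg1 at 143 and Homer2 at 119.7. The plot of level per kilobase by role shows how close the 5 group means of each gene lie beside the distance between genes.

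**Figure D1:**
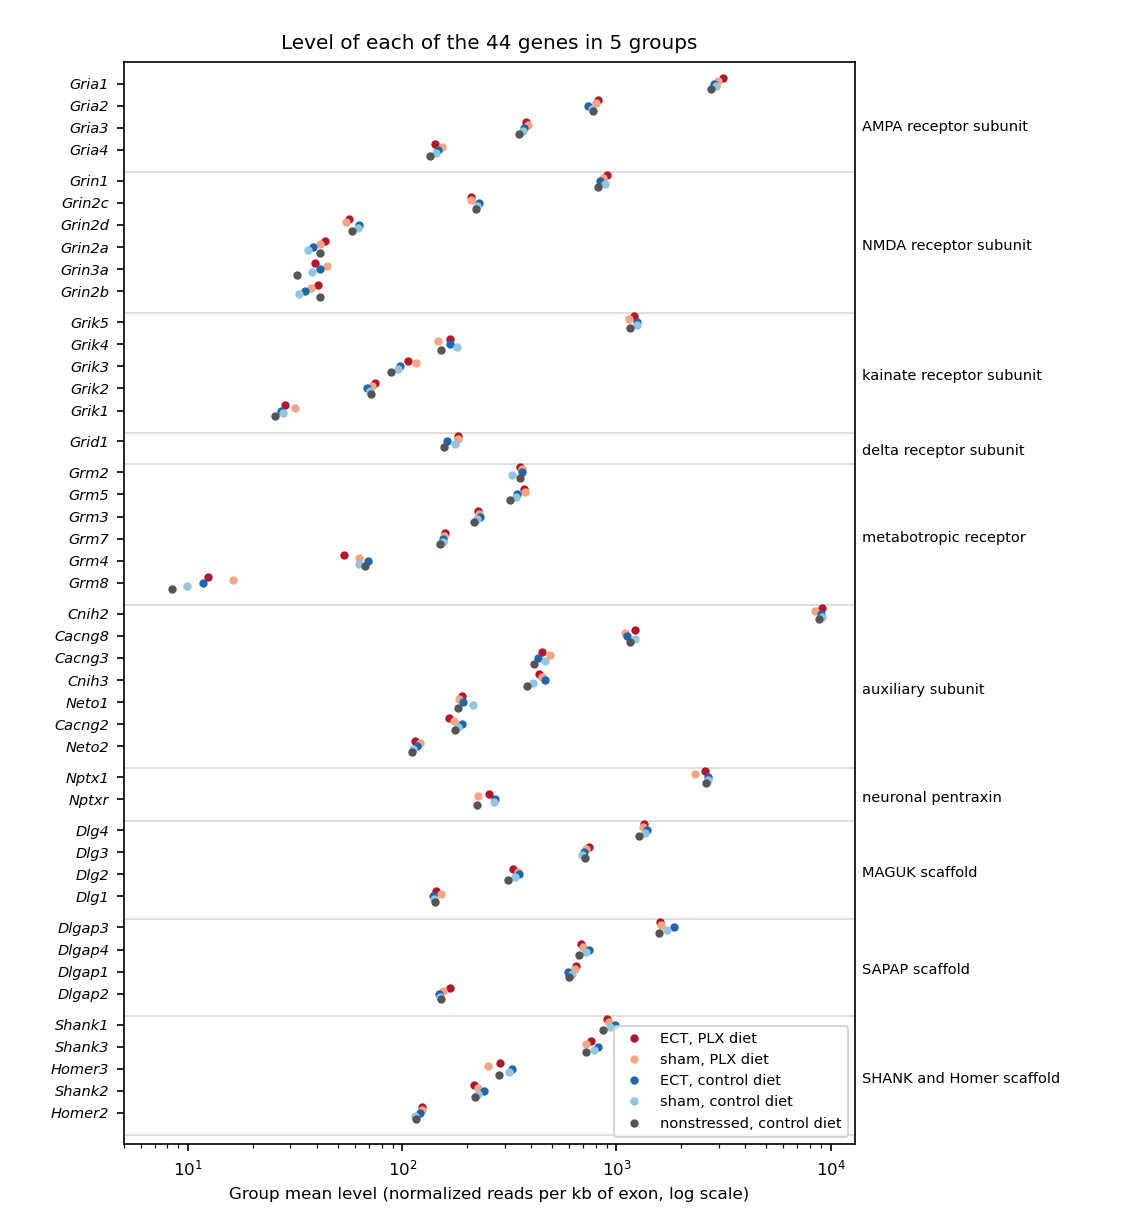
Group mean level of each of the 44 genes in normalized reads per kilobase of exon (horizontal log axis), with genes grouped by role down the page and 1 point for each of the 5 groups. Genes differ by up to 754-fold, from 11.8 for Grm8 to 8895 for Cnih2 over all libraries, while the 5 points of a gene mostly lie close together, Grm8 being the most spread.

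Promoter sequences were available for 29 of the 44 genes, as 250 bases before to 50 after the RefSeq start (GRCm38.p6). They were rich in CG: the median GC content was 67.3% with 22 CG dinucleotides per 300 bases, against 53.3% and 8 over 27025 genes. A gene was counted as holding a motif if any of its promoters held it. The core TGACG of the cAMP response element, read on both strands, was in 6 of 29 (20.7%), against 23% of all genes. The full element TGACGTCA was in 0 of 29 (2.03% of all genes), the E-box CACGTG in 4 (13.8%, against 8.09%) and TATAAA in 3 (10.3%, against 15.7%). These are counts of letters in a window and not of bound sites. The windows of 4 genes follow, because they are the obligatory NMDA subunit, which alone of the 29 held both TGACG and CACGTG, the 2 genes with the smallest p in the diet comparison among ECT mice, and the kainate subunit that followed the CA3 markers. Each runs 5′ to 3′ on the gene's strand, with CACGTG and TGACG (or its reverse complement CGTCA) in capitals.
Grin1, chr2:25319138-25319437, minus strand: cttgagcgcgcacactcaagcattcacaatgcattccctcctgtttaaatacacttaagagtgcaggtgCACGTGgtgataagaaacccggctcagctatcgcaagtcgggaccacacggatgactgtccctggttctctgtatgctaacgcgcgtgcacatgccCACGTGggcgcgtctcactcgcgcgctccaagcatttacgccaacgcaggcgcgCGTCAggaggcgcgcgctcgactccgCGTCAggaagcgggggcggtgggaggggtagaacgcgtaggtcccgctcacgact
Cacng2, chr15:78119231-78119530, minus strand: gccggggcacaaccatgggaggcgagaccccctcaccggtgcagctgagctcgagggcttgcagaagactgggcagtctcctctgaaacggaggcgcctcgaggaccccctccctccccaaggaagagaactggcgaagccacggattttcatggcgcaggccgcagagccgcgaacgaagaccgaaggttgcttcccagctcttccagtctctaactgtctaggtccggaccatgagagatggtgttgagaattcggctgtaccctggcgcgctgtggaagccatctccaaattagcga
Dlgap3, chr4:127172630-127172929, plus strand: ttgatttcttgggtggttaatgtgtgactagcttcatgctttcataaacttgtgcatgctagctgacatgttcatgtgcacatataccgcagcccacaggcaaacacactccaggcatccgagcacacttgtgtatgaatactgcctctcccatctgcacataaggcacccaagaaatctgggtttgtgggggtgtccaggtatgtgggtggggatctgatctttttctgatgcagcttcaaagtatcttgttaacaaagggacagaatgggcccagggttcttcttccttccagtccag
Grik4, chr9:42944322-42944621, minus strand: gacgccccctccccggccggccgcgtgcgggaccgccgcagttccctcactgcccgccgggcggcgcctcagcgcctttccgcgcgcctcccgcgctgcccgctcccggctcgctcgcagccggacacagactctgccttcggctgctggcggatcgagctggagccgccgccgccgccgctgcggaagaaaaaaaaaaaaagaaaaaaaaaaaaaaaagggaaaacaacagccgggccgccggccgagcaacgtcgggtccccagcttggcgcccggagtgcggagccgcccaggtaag
Grin1 held 2 copies of each motif and 33 CG dinucleotides. Grik4 held neither motif and 42 CG dinucleotides, and Cacng2 neither motif and 20. The Dlgap3 window, with 2 CG dinucleotides and 47.7% GC, was the least like the median. Both the Dlgap3 and the Cacng2 window lie inside the longer genes that GENCODE annotates.

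Across the 24 libraries, the highest library was less than 2-fold above the lowest for 36 of the 44 genes and less than 1.5-fold for 19. The share of all tested genes within these limits was not computed, so the counts do not set the 44 genes apart. Grik5, with 5501 to 6998 normalized reads, and Dlgap4, with 5338 to 6855, had the smallest SD within groups, 0.09 each on the log2 scale. The largest were 0.48 for Grm4 and 0.44 for Grm8, followed by 0.36 for Grin2a and 0.34 for Grin2b. The median SD within groups was 0.16 for the 44 genes, 0.14 for all tested genes and 0.11 for the 10953 tested genes whose mean was at or above that of the lowest of the 44. By this median the 44 genes were not steadier than other genes.

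Grin2a and Grin2b moved together from library to library. After each group's mean was removed, their log2 values correlated at r = 0.93 over 24 libraries, the highest of the 946 pairs among the 44 genes, ahead of Gria1 with Dlg3 at 0.92 and Dlg4 with Dlgap1 at 0.91. Nonstressed library 25 was high in both, with 1363 reads of Grin2a and 1836 of Grin2b, where the other 3 nonstressed libraries had 462 to 616 and 660.1 to 871. The lowest pairs were Gria4 with Dlg3 at −0.86, Grm4 with Cacng8 at −0.81 and Gria4 with Gria1 at −0.79, so libraries high in Gria1 were low in Gria4. The median over all pairs was 0.23. These r values are descriptions, since all genes of a library share its depth and regional makeup, in which the libraries differ. The part of these in the r values was not tested.

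Over all tested genes, the pattern most like that of Gria1, again after the group means were removed, was that of Wbscr17 (r = 0.973), then Ptk2b (0.963) and Wasf1 (0.961). For Grin1 it was Cacnb1 (0.926), Ppp2r1a (0.924) and Fam212b (0.921). For Dlg4 it was Iqsec2 (0.946), with Dlgap1 (0.912) also close. Each likeness is over the same 24 libraries and 15224 genes.

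The first question the design puts to these genes is whether a brain depleted of microglia by the PLX diet carries them at another level. Among sham mice, 0 of the 44 genes passed an adjusted p of 0.05 in limma's test across all 15225 genes, where 1.86% of all tested genes did (0.0854% higher and 1.77% lower). DESeq2, edgeR and limma-voom on the recovered reads also called 0 of them. At an unadjusted p below 0.05 there were 4 of 44 (9.09%), beside 9.48% of all tested genes, and 5 with DESeq2. Of the 44 fold changes 27 were positive, with a median of 0.04 on the log2 scale, beside a median of 0 over all genes. The 95% interval lay within 1.5-fold either way for 38 of the 44 genes, so larger differences are outside the interval for those and are not excluded for the other 6. In bulk tissue, fewer cells of a type and less RNA per cell cannot be told apart, here and in every result that follows.

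Grm8 (chr6:27275119-28135178, minus strand, GRCm38) had the smallest p. Its normalized reads were 153, 244, 149, 136 and 122 in sham mice on the PLX diet, against 67.8, 95.6, 136, 110 and 78.2 in sham mice on the control diet. Every PLX library was above 4 of the 5 control libraries, and the ranges overlapped only through the control library at 136. The log2 fold change was 0.71 (95% interval 0.17 to 1.26, limma, adjusted p = 0.285). The estimate was 0.55 without sham PLX library 18, which at 244 was the highest of all 24 libraries. Among ECT mice the values were 92.3, 178, 125 and 96.3 on the PLX diet, against a lowest of 69.4, a median of 112 and a highest of 183 on the control diet, and those ranges overlapped throughout (log2 fold change 0.12, interval −0.43 to 0.68).

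Grik4 (chr9:42518135-42944493, minus strand), the high-affinity kainate subunit known for its place at mossy fibre synapses of CA3, leaned the other way among sham mice. It had 897, 800, 1036, 805 and 804 reads in the libraries of the PLX diet, against 1105, 1091, 953, 1076 and 1128 in those of the control diet. All but 1 of the PLX libraries were below the lowest control library. The log2 fold change was −0.31 (interval −0.56 to −0.05, limma, adjusted p = 0.379), and −0.18 with the thalamus and choroid plexus means as covariates. The 10 CA3 marker genes, all above 0, summed to 13239 to 16697 in the PLX libraries and 14505 to 15825 in the control libraries of sham mice. Their part in the diet difference was not tested; the relation of Grik4 to the CA3 mean over all libraries is given with the marker lists. Among ECT mice the log2 fold change was −0.02 (interval −0.28 to 0.25), with 787, 862, 1163 and 1167 reads on the PLX diet and 854 to 1166 on the control diet.

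The remaining 2 genes at an unadjusted p below 0.05 among sham mice were Nptx1 (chr11:119538719-119547753, minus strand) and Grin3a (chr4:49661611-49845744, minus strand). Nptx1 had 13124, 10894, 13209.6, 11840.4 and 11489 reads on the PLX diet, against 14709, 14203, 12845, 14382 and 13393 on the control diet (log2 fold change −0.20, interval −0.39 to −0.01, limma, adjusted p = 0.478). Grin3a had 583, 679, 541, 499.8 and 433 on the PLX diet, against 345, 486, 521, 452 and 511 on the control diet (0.24, interval 0.01 to 0.47, limma, adjusted p = 0.498). Both pairs of groups overlapped. Homer3, which ties SHANK to metabotropic receptors, had the most negative estimate of the 44, −0.33 (interval −0.68 to 0.01).

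Among ECT mice the PLX diet again gave 0 calls among the 44 genes, where 2.3% of all tested genes were called (0.44% higher and 1.86% lower). The other 3 tools called 0 as well. At an unadjusted p below 0.05 there were 3 of 44 (6.82%), beside 11.4% of all tested genes, and 4 with each of the other 3 tools. Of the fold changes 22 were positive, with a median of −0.01, and 40 of the 44 intervals lay within 1.5-fold. No gene of the 44 had non-overlapping groups in either diet comparison. Over all tested genes such a gap was found in 0.841% (higher) and 2.51% (lower) among sham mice, and 1.01% and 2.23% among ECT mice.

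Cacng2 (chr15:77991748-78120028, minus strand), the TARP whose loss gives the stargazer mouse, came closest. It had 869.9, 906, 889 and 987 reads in ECT mice on the PLX diet, against a lowest of 977, a median of 1024 and a highest of 1145 in ECT mice on the control diet. All but 1 of the PLX libraries were below the whole control range. The log2 fold change was −0.20 (interval −0.32 to −0.07, limma, adjusted p = 0.12). It was −0.12 without the 8 libraries highest in thalamus markers (limma, adjusted p = 0.976). Without sham PLX library 21, which is in neither group compared here, the estimate stayed at −0.20 and the adjusted p by limma was 0.0467. Among sham mice Cacng2 had 1018, 928, 1012, 1017 and 809 reads on the PLX diet, against 930.4, 1008, 1067, 1003 and 991 on the control diet, a log2 fold change of −0.07 (interval −0.19 to 0.06).

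Dlgap3 (chr4:127169204-127237022, plus strand), the SAPAP scaffold whose loss in mice is known for compulsive grooming, had 7306, 6822, 7809 and 6991 reads in ECT mice on the PLX diet, against a lowest of 6717, a median of 8361 and a highest of 9447 in ECT mice on the control diet. Control library 3 held that lowest value, and the other 5 control libraries, at 8018 and above, were higher than every PLX library. This gave a log2 fold change of −0.20 (interval −0.36 to −0.04, limma, adjusted p = 0.241), and −0.26 without library 3 (adjusted p = 0.0293), so the call depends on that library. The 12 dentate granule markers, all above 0, summed to 12799.7 to 17552 in ECT mice on the PLX diet and 7963 to 14343 in ECT mice on the control diet. Their part in the Dlgap3 difference was not tested. Among sham mice Dlgap3 had a log2 fold change of −0.10 (interval −0.25 to 0.06).

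Grid1 was the third gene at an unadjusted p below 0.05 among ECT mice. It had 1029.6, 1017, 1157 and 1125 reads on the PLX diet, against a lowest of 813, a median of 967 and a highest of 1078 on the control diet, so the groups overlapped. Its log2 fold change was 0.17 (interval 0.02 to 0.32, limma, adjusted p = 0.357), and 0.08 without the 8 libraries highest in thalamus markers.

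Averaged over sham and ECT mice, the PLX diet gave 0 calls among the 44 genes (3.05% of all tested genes), and 0 with DESeq2, edgeR and limma-voom. The count at an unadjusted p below 0.05 was 8 of 44 (18.2%, beside 12.5% of all tested genes), 2 of them positive and 6 negative, and 8 to 10 with the other 3 tools. The negative ones were Cacng2 (−0.13, adjusted p = 0.124), Dlgap3 (−0.15, adjusted p = 0.181), Grin2c, a subunit found in astrocytes and some neurons (−0.11), Grin2d (−0.17), Shank3 (−0.11) and Homer3 (−0.24). The positive ones were Grm5 (0.12) and Grm8 (0.42). The smallest of the adjusted p, all from limma, was that of Cacng2, whose estimate was −0.08 (adjusted p = 0.564) with the thalamus and choroid plexus means as covariates. This average uses the same libraries as the 2 comparisons above and adds no independent evidence to them. Without ECT library 3 of the control diet, Dlgap3 was called (−0.18, adjusted p = 0.0225).

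**Figure D2:**
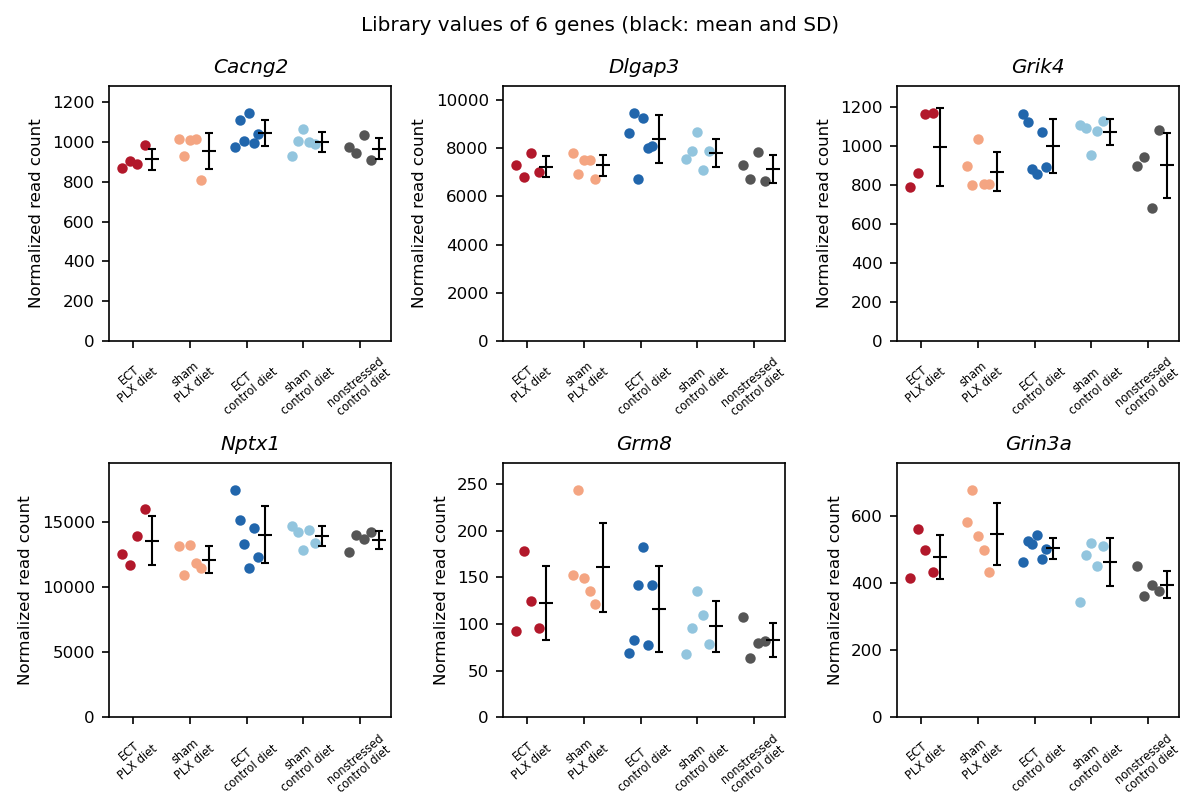
Normalized read count (vertical axis, from 0) of Cacng2, Dlgap3, Grik4, Nptx1, Grm8 and Grin3a in each library, by group, with the mean and SD in black. The groups overlap in every panel for PLX against control diet, and the single high point of Grm8 at 244 and the single low point of Dlgap3 at 6717 in ECT mice on the control diet are the libraries named in the text.

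The second question is whether ECT moved these genes in stressed mice. On the control diet, 0 of 44 genes passed (0.00657% of all tested genes), and 0 with DESeq2, edgeR and limma-voom. None of the 44 reached even an unadjusted p of 0.05, beside 6.88% of all tested genes. Estimates ran from −0.16 for Neto1 to 0.20 for Grm8, with 27 positive, a median of 0.01 and 42 of 44 intervals within 1.5-fold. The smallest p was that of Grid1, with a lowest of 813, a median of 967 and a highest of 1078 reads in ECT mice, against 936, 1135, 1073, 1077 and 1055 in sham mice. Its log2 fold change was −0.13 (interval −0.27 to 0.01, limma, adjusted p = 0.735), −0.08 without ECT library 3 and −0.02 without the 8 libraries highest in thalamus markers. The core subunits were as close: Gria1 −0.05 (interval −0.26 to 0.16), Gria2 −0.07 (−0.23 to 0.09), Grin1 −0.07 (−0.23 to 0.09) and Dlg4 0.03 (−0.11 to 0.17).

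On the PLX diet, ECT against sham also gave 0 of 44 calls with limma, DESeq2, edgeR and limma-voom (0% of all tested genes by limma). None of the 44 had an unadjusted p below 0.05, beside 2.55% of all tested genes. Estimates ran from −0.39 for Grm8 to 0.18 for Homer3, with 23 positive, a median of 0.01 and 42 of 44 intervals within 1.5-fold. The Grm8 estimate was −0.59 without ECT library 13 and −0.23 without sham library 18. Grin3a, with the smallest p, had 416, 561, 498 and 435 reads in ECT mice, against 583, 679, 541, 499.8 and 433 in sham mice. The ranges overlapped, and the log2 fold change was −0.19 (interval −0.44 to 0.05, limma, adjusted p = 0.999). It was −0.11 without sham library 18 and −0.31 with the thalamus and choroid plexus means as covariates. Averaged over both diets, 0 of 44 genes were called (0% of all tested genes) and none had an unadjusted p below 0.05, beside 2.49% of all tested genes. All 44 intervals then lay within 1.5-fold. The libraries of ECT and sham mice overlapped for each of the 44 genes on both diets, where all ECT libraries were higher in 0.355% and lower in 0.486% of tested genes on the control diet, and higher in 0.499% and lower in 0.663% on the PLX diet.

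Whether the response to ECT depended on the diet was tested as an interaction. It gave 0 of 44 calls with limma, DESeq2, edgeR and limma-voom (0% of all tested genes by limma), and 0 at an unadjusted p below 0.05, beside 6.85% of all tested genes, with 1 in limma-voom. The largest estimates were −0.59 for Grm8 (interval −1.37 to 0.18) and −0.33 for Grin3a (interval −0.66 to 0.00, limma, adjusted p = 0.734). Only 32 of the 44 intervals lay within 1.5-fold, so the interaction is the least resolved of the comparisons. Without the 8 libraries highest in thalamus markers the estimates were −0.16 for Grm8 and −0.21 for Grin3a.

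The third question is how stressed mice compare with nonstressed mice on the control diet. Nonstressed mice also received no treatment. Stress therefore cannot be told apart here from the isoflurane and the sham or ECT sessions. Sham against nonstressed gave 0 of 44 calls with limma, DESeq2, edgeR and limma-voom (0% of all tested genes by limma). At an unadjusted p below 0.05 there was 1 gene (2.27%, beside 6.5% of all tested genes), Grid1. It had 936, 1135, 1073, 1077 and 1055 reads in sham mice, against 907, 866, 905 and 1073 in nonstressed mice, a log2 fold change of 0.17 (interval 0.02 to 0.33, limma, adjusted p = 0.759), and 0.10 without the 8 libraries highest in thalamus markers. Groups failed to overlap only for Dlgap4, a SAPAP scaffold, higher in all sham libraries (1 of 44, or 2.27%, beside 1.43% of all tested genes). None of the 44 was lower in all sham libraries, beside 1.17% of tested genes. It had 5734, 6132, 6855, 5769 and 5788 reads in sham mice, against 5689, 5619.5, 5714 and 5639 in nonstressed mice. The gap between the groups, 5734 against 5714, was small beside the spread of the sham libraries (log2 fold change 0.09, interval −0.03 to 0.22, limma, adjusted p = 0.82).

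ECT against nonstressed on the control diet gave 0 of 44 calls with limma, DESeq2, edgeR and limma-voom (0% of all tested genes by limma). At an unadjusted p below 0.05 there were 5 of 44 (11.4%, beside 7.34% of all tested genes), all positive, and 6 with DESeq2. Grin3a was the only one whose groups did not overlap (0.506% of all tested genes were higher in this way, and 0.44% lower). It had a lowest of 465, a median of 509.6 and a highest of 543 reads in ECT mice, against 452, 363, 394 and 377 in nonstressed mice, a log2 fold change of 0.35 (interval 0.11 to 0.58, limma, adjusted p = 0.542). The other 4 were scaffolds: Dlgap3 (0.23, interval 0.07 to 0.38), Shank3 (0.19, interval 0.05 to 0.32), Dlgap4 (0.15, interval 0.03 to 0.27) and Dlg2, a relative of PSD-95 (0.17, interval 0.02 to 0.32), with adjusted p by limma of 0.545 to 0.648.

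The estimates leaned upward in both of these comparisons: 35 of 44 were positive in sham against nonstressed (79.5%, beside 49.2% of all tested genes) and 35 of 44 in ECT against nonstressed (79.5%, beside 47.7%). The median log2 fold changes were 0.08 and 0.07, against 0.00 and −0.01 over all genes. The 2 comparisons share the same 4 nonstressed libraries, and the 44 genes vary together between libraries, so the count of positive genes carries no test. On the log2 scale, the mean of nonstressed mice was the lowest of the 5 groups for 24 of the 44 genes. Pan-neuronal marker sums were 96177 to 114022 in ECT and 101958 to 112786 in sham mice on the control diet, against 96389.6 to 104074 in nonstressed mice, from 8 genes all above 0. The choroid plexus sums were 5057 to 52717 and 5286 to 74225 in the same ECT and sham groups, against 23131 to 116181 in nonstressed mice. The part of either list in these signs was not tested.

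**Figure D3:**
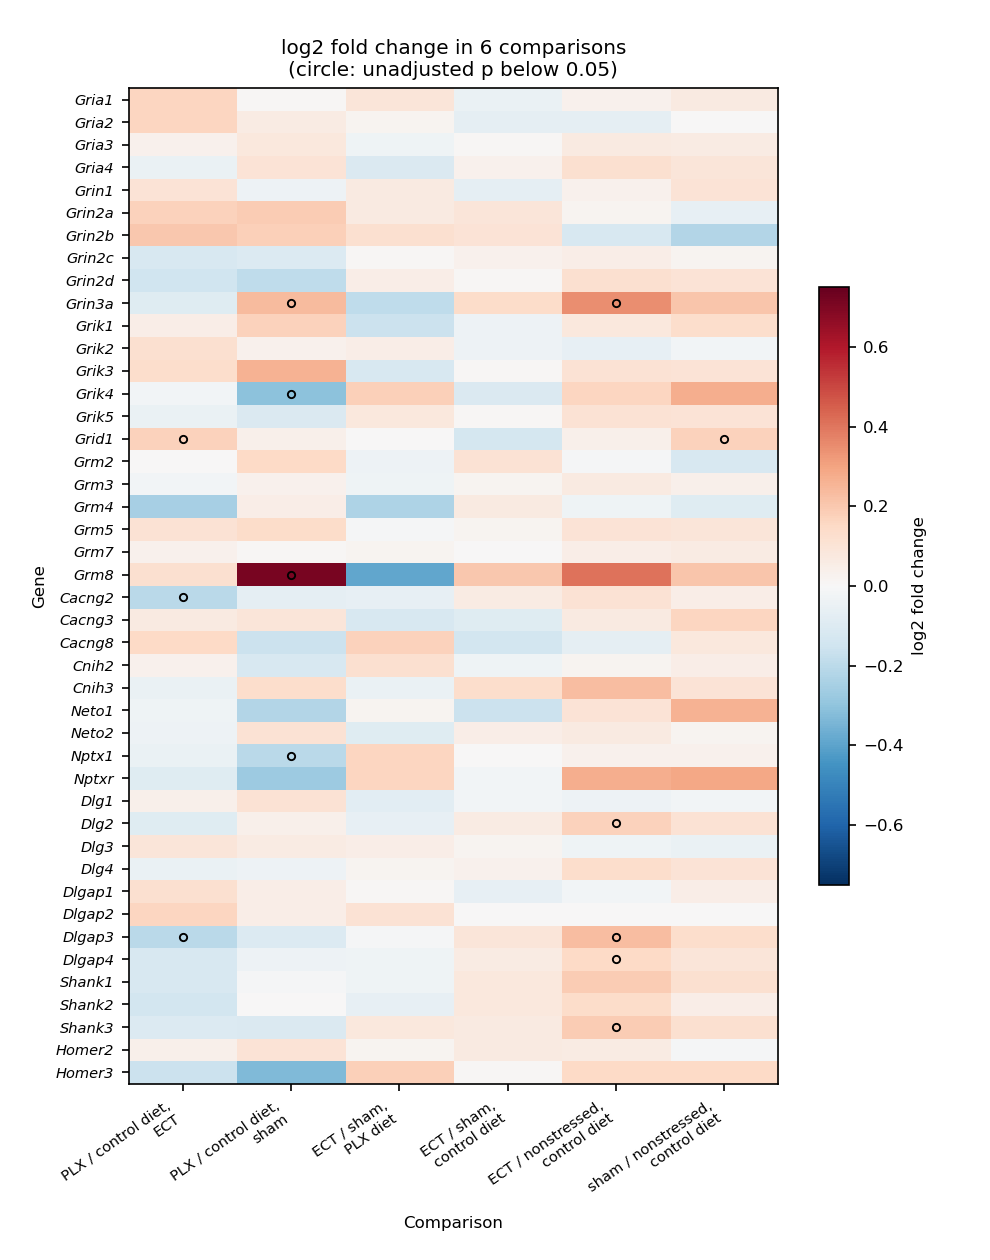
Log2 fold change (colour, limma) of the 44 genes (rows, in order of role) in 6 comparisons (columns), with a circle where the unadjusted p was below 0.05; no gene passed after adjustment over all genes. The deepest colour is Grm8 at 0.71 for PLX over control diet among sham mice, and the columns against nonstressed mice are mostly pale red, with 35 of 44 genes positive in each.

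Other genes of the excitatory synapse behaved much as the 44 did. Of 50 such genes outside the set, 49 were tested: 3 further receptor subunits, 16 auxiliary and trafficking genes, 12 genes of postsynaptic signalling, 12 synaptic adhesion proteins and organizers and 6 glutamate transporters. In 8 of the 9 comparisons 0 of the 49 passed. In the average over sham and ECT mice the PLX diet had 1 higher and 0 lower (0.493 and 2.56% of all tested genes). That gene was Lrrtm4, a leucine-rich postsynaptic organizer known for its role at dentate granule cell synapses. Lrrtm4 had 1013, 777, 808 and 842 reads in ECT and 795, 879, 833, 778 and 802 in sham mice on the PLX diet. On the control diet it had a lowest of 552, a median of 731 and a highest of 757 in ECT mice, and 742, 775, 596, 819.9 and 687 in sham mice. All 4 PLX libraries of ECT mice were above all 6 control libraries of ECT mice, while the sham groups overlapped. The log2 fold change was 0.35 among ECT mice (interval 0.13 to 0.56, limma, adjusted p = 0.0932), 0.18 among sham mice (−0.03 to 0.39, adjusted p = 0.612) and 0.27 on average (0.12 to 0.42, adjusted p = 0.0446). That call was lost in 19 of 34 alternatives, among them limma-voom with a random effect for the letter in the library titles (adjusted p = 0.136) and limma with the thalamus and choroid plexus means as covariates (adjusted p = 0.22). In ECT mice the 12 dentate granule markers summed to 12799.7 to 17552 on the PLX diet and 7963 to 14343 on the control diet. In sham mice the sums were 12914 to 13564 and 10369 to 13640. The library lowest in Lrrtm4, ECT library 4 of the control diet, had the lowest dentate mean (−0.697). The highest, ECT library 12 of the PLX diet, had the highest (0.394). That mean was not a covariate, and its part in the Lrrtm4 difference was not tested.

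C1ql3, a secreted synaptic organizer, was next on the average over sham and ECT mice, with a log2 fold change of 0.24 (interval 0.09 to 0.39, limma, adjusted p = 0.0906). The part of the dentate granule markers in the C1ql3 difference was not tested either. Lrrtm2, which binds neurexins, had the smallest p of the 49 genes for ECT over sham on the control diet, with a log2 fold change of 0.23 (interval 0.11 to 0.34, limma, adjusted p = 0.31). On the PLX diet its estimate was −0.08 (interval −0.20 to 0.05), and the interaction was −0.31 (interval −0.48 to −0.14, limma, adjusted p = 0.626).

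Because hippocampal fields differ in their receptor subunits, each of the 44 genes was set against the library means of 4 regional marker lists. Across the 24 libraries the CA3 and dentate granule means form a continuous range. The thalamus and choroid plexus means fall into separate clusters, so for those the relation was computed within each cluster only. That made 264 relations, tested by permutation with Benjamini-Hochberg adjustment over all of them, and 7 passed for Pearson's r, 3 with CA3 and 4 with the dentate list.

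Grik4 had the strongest relation with CA3 markers: r = 0.74 (permutation p = 4e-05, adjusted p = 0.0106) and rho = 0.73 (permutation p = 0.00015, adjusted p = 0.0185) over 24 libraries. Without the 2 libraries farthest from the median of the CA3 mean, r was 0.67 (adjusted permutation p = 0.0454). Neto1, which carries kainate receptors at mossy fibre synapses, and Nptxr each had r = 0.65 and rho = 0.63 with CA3 (permutation, adjusted p = 0.0347 for r and 0.0446 for rho). Without the 2 farthest libraries r was 0.61 for Neto1 and 0.53 for Nptxr (adjusted permutation p = 0.0947 and 0.192). With each group's mean removed and libraries permuted within groups, r was 0.73 for Grik4, 0.61 for Neto1 and 0.63 for Nptxr, with adjusted permutation p of 0.121, 0.251 and 0.198. No relation of the 264 passed in that form. Within the 8 libraries highest in thalamus markers none could pass. Few arrangements within groups exist there, and the permutation p was 0.0831 even for Grid1 at r = −0.99.

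With the dentate granule mean, Dlgap3 had r = −0.67 and rho = −0.70 (permutation, adjusted p = 0.033 and 0.0185) and Dlgap4 r = −0.64 and rho = −0.63 (permutation, adjusted p = 0.0347 and 0.0446). Without the 2 farthest libraries r was −0.59 for Dlgap3 and −0.64 for Dlgap4 (adjusted permutation p = 0.118 and 0.055). Cacng2 had r = −0.64 but rho = −0.49, and Grik2 r = 0.64 but rho = 0.40 (permutation, adjusted p for r = 0.0347 each, for rho = 0.177 and 0.301). Without the 2 farthest libraries r was −0.51 and 0.36, so the Grik2 relation rests on those libraries. With group means removed, r was −0.49 for Dlgap3, −0.48 for Dlgap4, −0.44 for Cacng2 and 0.55 for Grik2.

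Grm4, with the largest SD within groups of the 44 genes on the log2 scale, differed between libraries high and low in thalamus markers. The 8 libraries above the gap in the thalamus mean had 372 to 658 reads (median 503) and the 16 below it 189 to 414 (median 303). Within the 8, r was 0.82 and rho 0.81, and within the 16, r was 0.31 and rho 0.32 (exact permutation test for the 8, permutation test for the 16, adjusted p for r = 0.169 and 0.594), so neither passed. Those 8 libraries came from every group. Within the 16, Dlg4 and Dlgap4 passed for rho only, at −0.79 and −0.85 (permutation, adjusted p = 0.0191 and 0.0132), with r = −0.63 and −0.61. Without the 2 farthest of these libraries both had r = −0.78 and passed (adjusted permutation p = 0.0454 each). Shank3 and Cnih2 then passed as well, at r = −0.89 and −0.82 (adjusted permutation p = 0.0106 and 0.0454). With all 16 libraries their r was −0.34 and −0.38. Over all 24 libraries, Homer3 with the CA3 mean (rho = 0.67, r = 0.61) and Grin2c with the dentate granule mean (rho = −0.62, r = −0.52) also passed for rho only (permutation, adjusted p for rho = 0.0317 and 0.0446, for r = 0.0521 and 0.126).

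**Figure D4:**
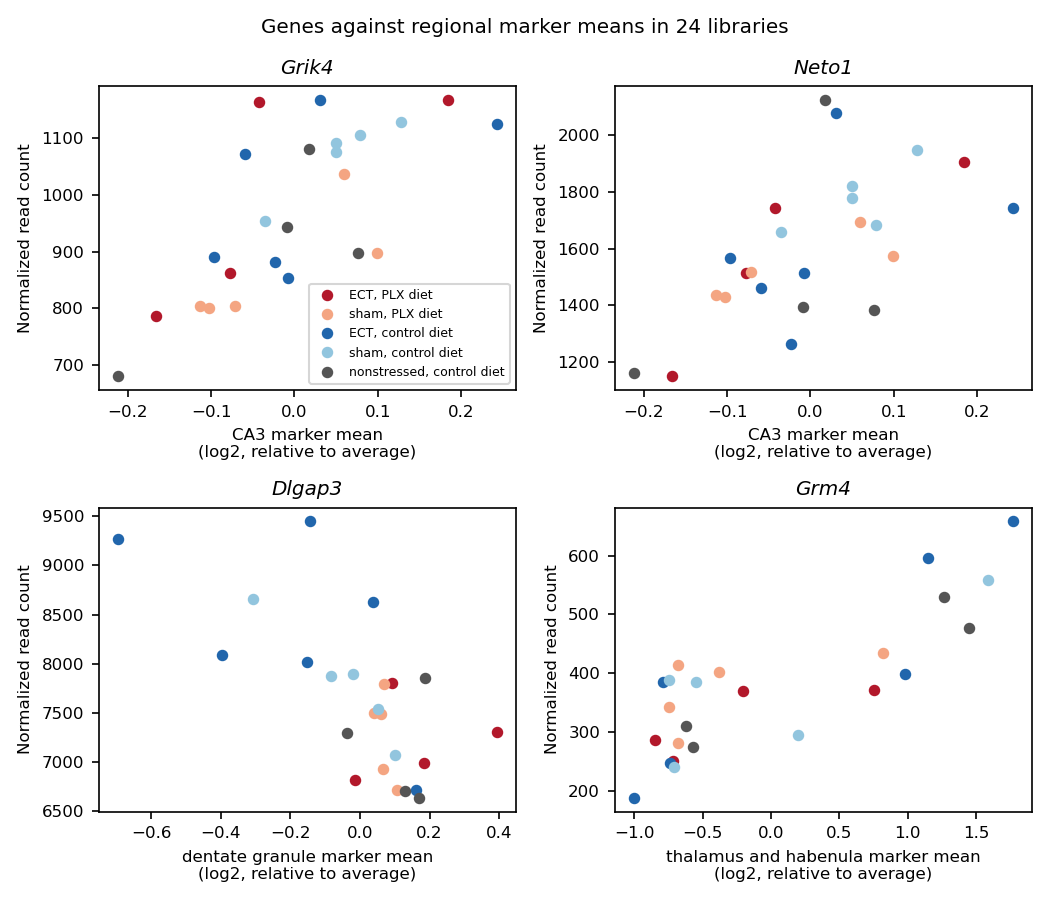
Normalized read count (vertical axis) of Grik4, Neto1, Dlgap3 and Grm4 against the mean log2 level of a regional marker list (horizontal axis, relative to the average library) in 24 libraries, coloured by group. Grik4 and Neto1 are high where CA3 markers are high (r = 0.74 and 0.65), Dlgap3 is low where dentate granule markers are high (r = −0.67), and the Grm4 panel shows the 2 separate clusters of thalamus marker means.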

How the data were processed

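The deposited table gives 23240 genes in 1 signal column for each library, which the authors' header calls normalized counts, that is, counted reads scaled to a common library size. The submitters' processing notes name DESeq2 1.6.3, HTSeq 0.6.1p1, TopHat2 2.0.10 and cutadapt, and list mm10 and hg19 as builds, with no word on their use. Neither the annotation nor the use of strand in counting is stated there, so a gene and its antisense partner cannot be told apart. Values were whole multiples of 1 step in each column, so whole reads were recovered for 100% of values (tolerance 0.001), with size factors of 0.917 to 1.205.

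The 44 genes, the marker lists and the tests were chosen with earlier results of these data known. The rule for naming took genes called or among the 3 smallest p of a comparison, the highest and lowest level of each role, and the 3 strongest correlations with each marker list; a few further genes were named after their values were seen, and 1 likeness is not reported here. Values were tested with limma 3.58.1 (R 4.3.3, trend and robust options) on log2(normalized read count + 1), for genes with at least 10 in at least 4 libraries, which gave 15225. The 5 group means were fitted over 24 libraries, Benjamini-Hochberg adjustment ran over the full set of tested genes, and a gene was called where the adjusted p was under 0.05. Fold changes on this scale understate those of low genes. The lowest of the 44 per kilobase, Grm8, had 63.3 to 244 reads, beside which the added 1 is small. The fits were tested on simulated data. Alternatives were DESeq2 1.42.0, edgeR 4.0.16 (quasi-likelihood, TMM) and limma-voom on the recovered reads, limma-voom again with libraries of 1 title letter treated as correlated, pseudocounts of 0.5 and 8, no filter, only the compared groups, the thalamus and choroid plexus list means as covariates, and each library left out in turn. A fit without the 8 libraries highest in thalamus markers was added after the data were seen.

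Correlations had been planned over all 24 libraries for 4 lists. Where a list mean had a gap of over 15% of its range with at least 6 libraries on each side, they were computed within the clusters instead. Permutation tests drew 100000 resamples, or were exact for 8 libraries. Coordinates come from GENCODE vM21 and promoters from RefSeq, both on GRCm38. Python 3.11.15, SciPy 1.17.1 and matplotlib 3.10.9 were used.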

Additional observations from a re-analysis of the deposited data

Results flagged for a closer look

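In groups of 4 to 6 libraries a value was picked out when its gap to the nearest other library was large beside the whole range of the group (Dixon's test at the 95% level). Of 220 sets of 1 gene in 1 group, 14 were picked out, where chance gives about 1 in 20, or 11. Sham library 18 of the PLX diet held 4 of them, all highest of its group: Grik3 at 1479 reads (the others 822 to 998), Grm2 at 2178 (1599.6 to 1762), Grm3 at 784 (666 to 682) and Grm8 at 244 (122 to 153). Nonstressed library 25 held 3, also highest: Gria2 at 14603 (10972 to 11563), Gria3 at 3954 (3212 to 3333) and Grik5 at 6376 (5849.9 to 5874). Sham library 9 of the control diet held the highest Shank1, 12283 (8814 to 9444), the highest Homer2, 1748 (1348 to 1433), and the lowest Homer3, 874 (1099.8 to 1172). ECT library 3 of the control diet held the lowest Dlg2, 4654 (5642 to 6179.6), and the lowest Shank1, 8043 (10303 to 11381). The other 2 were the highest Grin2a, 1019.8 (684 to 713), in ECT library 15 of the PLX diet, and the highest Grin2c, 1142 (1014 to 1040.5), in sham library 20 of the PLX diet. Library 3 also had the highest thalamus mean of all 24 libraries (1.77) and library 9 the lowest choroid plexus mean (−2.06).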

How the results depend on the processing

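The count of called genes among the 44 was 0 in every comparison under DESeq2, edgeR, limma-voom, the title letter as a random effect, both pseudocounts, no filter, only the compared groups, the marker means as covariates and the fit without the 8 libraries highest in thalamus markers. With each library left out in turn the count was 0 to 1 for PLX over control diet among ECT mice and 0 to 1 for its average over sham and ECT mice, and 0 in the other 7 comparisons. The gene called without ECT library 3 of the control diet was Dlgap3 (−0.26, adjusted p = 0.0293 among ECT mice, and −0.18, adjusted p = 0.0225 on average), and without sham library 21 of the PLX diet Cacng2 among ECT mice (−0.20, adjusted p = 0.0467, limma). Sham library 21 is in neither group of that comparison. For the named genes and comparisons recomputed, no alternative reversed a direction. Of 264 correlations 7 passed, 0 with group means removed and 5 without the 2 farthest libraries of each relation, where Grik4 with CA3 alone of the 7 still passed. The others of the 5 were Shank3, Cnih2, Dlg4 and Dlgap4 with the thalamus mean, within the libraries below its gap. The Lrrtm4 call was lost in 15 of the 24 fits that left out a library (limma, adjusted p 0.0287 to 0.125). With the longest transcript in place of all exons, level per kilobase was checked for the highest and lowest gene of each role. It moved by more than the SD for 9 of those, among them Dlg4 (2812) and Grin1 (1952). The other genes were not counted: Dlgap1, for example, moved from 619 to 1545, while Grm3 stayed at 225. No paired analysis was possible because the library numbers in the titles are not shared between groups, and a title letter is shared only within a group (consensus correlation 0.189). With 4 to 6 libraries a group, the intervals of Grm4 and Grm8 reached beyond 1.5-fold in each comparison of 2 groups, so such differences in them are not resolved.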
